A study of Mus musculus with 4 samples.

Results

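The angiopoietin-like genes described here are 6 mouse genes, Angptl1, Angptl2, Angptl4, Angptl6, Angptl7 and Angptl8, taken by symbol from tables of 21878 gene rows. They were chosen by name with their levels and fold changes in these same libraries already known, so the contrast between the groups is given for them as a description and not as a test. RNA was sequenced from 4 libraries of liver progenitor-like cells of C57BL/6 mice aged 6 to 8 weeks. HepLPC (n = 2 libraries) grew out of hepatocytes and NPC_LPC (n = 2) out of liver non-parenchymal cells, both in transition and expansion media. The protocol names tdTomato mice given AAV8-TBG-Cre, a virus whose promoter is active in hepatocytes, for the hepatocyte preparation, and AlbCreERT/R26GFP mice, whose inducible Cre follows the albumin gene, for the non-parenchymal one. If the mice were used in that order, the line and the virus differ with the group and cannot be told apart from cell origin. The cell type label of the HepLPC libraries mentions both sources, and the titles decided the grouping. Nothing in the labels says that the libraries of a group came from separate mice or cultures, so their spread may be technical.

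Angiopoietin-like proteins are secreted glycoproteins related to the angiopoietins, with an amino-terminal coiled coil and, in most members, a carboxy-terminal fibrinogen-like domain. They do not bind the angiopoietin receptor Tie2 in the way the angiopoietins do. Angptl4 and Angptl8 belong to the branch that inhibits lipoprotein lipase and so steers triglyceride between tissues. Angptl2 is better known as a matrix-associated, pro-inflammatory factor of stromal and fat tissue that signals through integrins. Angptl6, also called angiopoietin-related growth factor, is a liver-derived factor, Angptl1 is an anti-angiogenic factor, and Angptl7 is a secreted protein best known from the eye.

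The gene models of GENCODE M21 on GRCm38, the assembly called mm10, place the 6 genes on 5 chromosomes. Angptl2 spans chromosome 2 from 33216069 to 33247717 on the plus strand, and Angptl4 spans chromosome 17 from 33773750 to 33781830 on the minus strand. Angptl8 lies on chromosome 9 from 21835510 to 21837347 on the plus strand, and Angptl6 on the same chromosome from 20873808 to 20879727 on the minus strand. Angptl1 lies on chromosome 1 from 156838562 to 156861078 on the plus strand, and Angptl7 on chromosome 4 from 148495183 to 148500460 on the minus strand. Angptl8 is the shortest of them, with a longest coding sequence of 594 bases (198 codons) against 1011 to 1479 bases in the other 5. It is the member without a fibrinogen-like domain. Angptl1, Angptl2, Angptl7 and Angptl8 each lie inside a larger gene on the opposite strand, namely Ralgps2, Ralgps1, Mtor and Dock6. No exon of these 4 larger genes falls within the span of the member it holds.

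The RefSeq promoter table (GRCm38.p6) held 5 of the 6 genes and no entry for Angptl4. The 250 bases upstream of the RefSeq start are shown for Angptl2 and Angptl8, the genes with entries whose counts were high enough to be compared between the groups. Angptl2 (chr2:33215711-33215960, plus strand) is the gene nearly silent in HepLPC. Angptl8 (chr9:21835260-21835509, plus strand) was present in all 4 libraries. Sequences run 5′ to 3′, and capitals mark the only matches found among 6 searched motifs.
Angptl2: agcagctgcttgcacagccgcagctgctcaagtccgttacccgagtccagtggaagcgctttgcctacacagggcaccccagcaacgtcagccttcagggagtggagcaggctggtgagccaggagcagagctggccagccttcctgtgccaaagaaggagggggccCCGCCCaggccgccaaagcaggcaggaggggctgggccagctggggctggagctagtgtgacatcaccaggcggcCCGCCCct
Angptl8: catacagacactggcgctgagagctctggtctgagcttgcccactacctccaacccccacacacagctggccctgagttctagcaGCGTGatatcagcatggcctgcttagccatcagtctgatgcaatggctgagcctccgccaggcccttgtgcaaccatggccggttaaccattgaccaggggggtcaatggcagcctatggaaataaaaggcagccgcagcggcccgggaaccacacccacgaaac
The search covered both strands for the E-box CACGTG, the hypoxia response cores ACGTG and GCGTG (an E-box also holds the former), the AP-1 site TGANTCA, the TATA box TATAAA, the GC box GGGCGG and the CCAAT box CCAAT. The Angptl2 window held 2 GC boxes in reverse orientation, beginning 83 and 8 bases upstream of the start, and the Angptl8 window held 1 hypoxia core, beginning 165 bases upstream. A GC box was present in 32.7% and a hypoxia core in 38.6% of all 32817 promoter windows of the same length, so both are common. E-boxes were in 6.02%, AP-1 sites in 6.75%, TATA boxes in 12.4% and CCAAT boxes in 33.8% of them. The Angptl2 window was 66.8% G and C and the Angptl8 window 58.8%, where the median window had 52.4%.

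Total counts ran from 17575998 to 20625957 per library. Levels are given as CPM, which are counts divided by TMM-adjusted library size, or as the authors' FPKM where genes are set against each other. A count of 3, used as the floor for a gene with no count, equals 0.148 to 0.169 CPM. Intervals and floors cover counting error only. Of the 12332 genes that passed the filter on low counts, the edgeR quasi-likelihood test called 53, or 0.43%, at a Benjamini-Hochberg adjusted p under 0.05. Of all tested genes, 0.227% were called higher and 0.203% lower in HepLPC, and 21.9% had an unadjusted p under 0.05. Markers of mature hepatocytes (6 genes, among them Alb, Ttr, Apoa1 and Cyp2e1) summed to 2.65 to 8.997 CPM in HepLPC and to 0.198 to 0.329 CPM in NPC_LPC. Apoa1 was at 5.28 and 0.901 CPM in HepLPC and had no count in NPC_LPC. The groups of Alb overlapped, at 2.28 and 0.113 CPM in HepLPC against 0.110 and 0.148 CPM in NPC_LPC. DESeq2 but not edgeR called Apoa1 and Ttr. Cyp2e1 had no more than 3 counts in any library. Of 6 biliary markers 4 had over 3 counts in every library, and all 6 summed to 2072 to 9307 CPM. Spp1 was the largest part in every library, at 3024 and 904 CPM in HepLPC against 8939 and 4200 CPM in NPC_LPC. The keratins had the opposite order. Krt19 was at 1434 and 885 CPM in HepLPC against 111 and 275 CPM in NPC_LPC, and Krt7 at 103 and 165 against 1.43 and 17.2 CPM. The groups of Sox9, Epcam and Cftr overlapped. DESeq2 called Spp1 and Krt19, and edgeR none of the 5 tested. Endothelial markers summed to at most 7.16 CPM, and adipocyte markers to at most 0.282 CPM with all 4 genes at or under 3 counts.

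The family differed in make-up between the groups. In HepLPC the lipase inhibitor Angptl4 was the leading member and Angptl2 was nearly absent. In NPC_LPC Angptl2 led, with Angptl4 present at a lower level than in HepLPC. Angptl8 was moderate in all libraries and higher in HepLPC, Angptl6 was low throughout, and Angptl1 and Angptl7 were at or under the floor. Of the 6 members, 3 (Angptl2, Angptl4 and Angptl8) passed the filter on low counts, and 1 of these (Angptl2) was among the called genes, where 0.43% of all tested genes were. The contrast was known when the members were chosen, and nothing is read from that count.

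Angptl2 had 3 and 12 counts in HepLPC replicates 1 and 2 and 1364 and 2286 counts in those of NPC_LPC. This equals 0.167 and 0.676 CPM in HepLPC and 74.8 and 113 CPM in NPC_LPC. Both HepLPC libraries were low and both NPC_LPC libraries high, with no overlap: the nearest libraries of the 2 groups were 111-fold apart. The group means were 0.421 ± 0.360 CPM (SD, n = 2) in HepLPC and 94.0 ± 27.1 CPM (SD, n = 2) in NPC_LPC. The ratio of summed counts scaled by library size was 226 in favour of NPC_LPC, with an exact 95% interval of 137 to 405 for counting error only. The HepLPC libraries themselves were 4.06-fold apart and the NPC_LPC libraries 1.51-fold. The fitted log2 fold change of HepLPC over NPC_LPC was -7.78 (SE 0.65). Without HepLPC replicate 1 or without HepLPC replicate 2, edgeR called no gene at all, Angptl2 included, and its log2 fold change was -7.09 or -9.08. In such bulk RNA, fewer cells that express a gene and less RNA per cell cannot be told apart.

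Angptl4 was at 94.4 and 97.9 CPM in replicates 1 and 2 of HepLPC, against 15.5 and 41.4 CPM in NPC_LPC. The HepLPC libraries were close, 1.04-fold apart, while NPC_LPC replicate 2 was 2.67-fold above replicate 1. The groups did not overlap, and the nearest libraries differed 2.28-fold. Group means were 96.1 ± 2.51 CPM (SD, n = 2) and 28.5 ± 18.3 CPM (SD, n = 2), a log2 fold change of 1.75 (SE 0.48). The edgeR fit did not call Angptl4 and DESeq2 did, a tool that called 11.7% of the genes to which it gave an adjusted p. The size depended on the NPC_LPC library used: the log2 fold change was 1.23 without NPC_LPC replicate 1 and 2.63 without replicate 2.

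Angptl8 acts with other members of the lipase branch on lipoprotein lipase in a feeding-dependent way. It was at 7.28 and 12.4 CPM in replicates 1 and 2 of HepLPC, against 4.50 and 3.07 CPM in NPC_LPC. The groups did not overlap, but the nearest libraries, HepLPC replicate 1 and NPC_LPC replicate 1, were only 1.62-fold apart. Libraries of the same group differed by similar factors, 1.70-fold in HepLPC and 1.47-fold in NPC_LPC. The log2 fold change was 1.38 (SE 0.50), and neither edgeR nor DESeq2 called the gene. Non-overlap is common here: 56.4% of the tested genes had groups that did not overlap.

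The remaining members were scarce. Angptl6 had 8 and 24 counts in HepLPC replicates 1 and 2 and 4 and 6 counts in those of NPC_LPC, or 0.444, 1.35, 0.219 and 0.297 CPM. Both HepLPC libraries were above both NPC_LPC libraries, with a ratio of summed counts of 3.44 and an exact 95% interval of 1.65 to 7.84 for counting error. The HepLPC libraries themselves differed 3.04-fold. Angptl1 had 2 counts in NPC_LPC replicate 1 and none in the other 3 libraries. Angptl7 had no count in any of the 4 libraries, which at the floor of 3 counts allows a level of up to 0.148 to 0.169 CPM per library. Angptl1, Angptl6 and Angptl7 did not pass the filter, and no fold is given for Angptl1 or Angptl7.

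**Figure D1:**
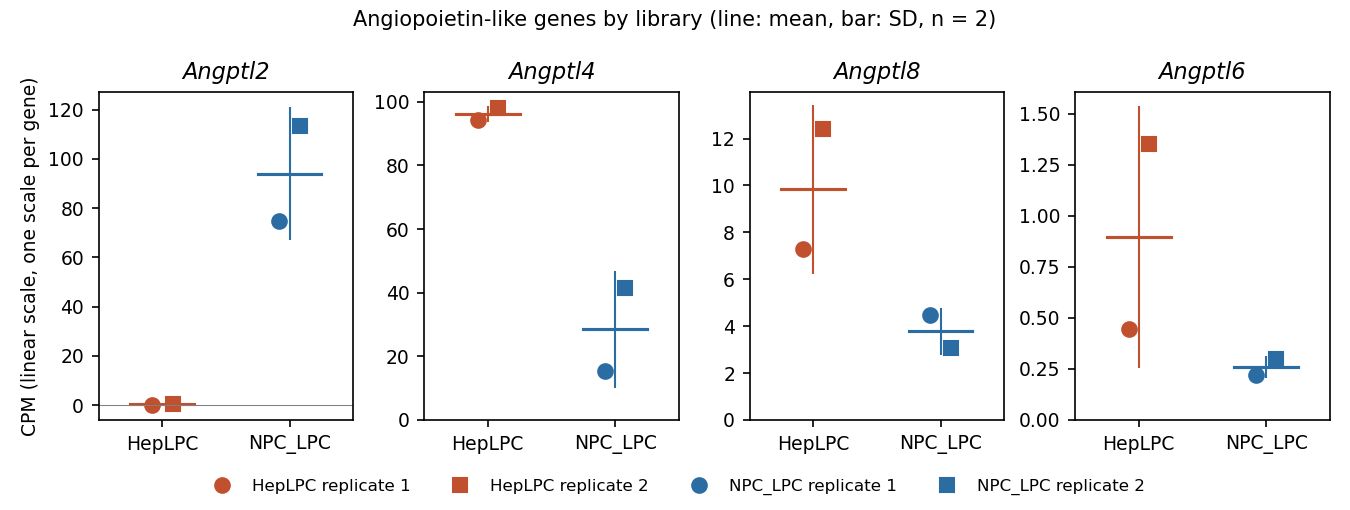
CPM of Angptl2, Angptl4, Angptl8 and Angptl6 in each library on a linear axis that differs between panels; circles are replicate 1, squares replicate 2, horizontal lines group means and vertical bars the SD (n = 2). Angptl2 lies at 74.8 and 113 CPM in NPC_LPC and under 1 CPM in HepLPC, while Angptl4 lies at 94.4 and 97.9 CPM in HepLPC against 15.5 and 41.4 CPM in NPC_LPC.

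FPKM, which divides by transcript length, allowed the members to be set against each other. In HepLPC the order was Angptl4 at 41.4 and 44.9 FPKM, Angptl8 at 8.82 and 15.5, Angptl6 at 0.288 and 0.719, and Angptl2 at 0.0374 and 0.156 FPKM. No neighbours in that order overlapped between the HepLPC libraries. In NPC_LPC the order of the means was Angptl2 (15.9 and 24.5 FPKM), Angptl4 (6.85 and 17.7), Angptl8 (5.24 and 3.48) and Angptl6 (0.140 and 0.186). The values of Angptl2 and Angptl4 overlapped across the NPC_LPC libraries, so their order there is within the spread. Within each library taken alone, Angptl2 exceeded Angptl4 by 2.32-fold in NPC_LPC replicate 1 and by 1.38-fold in replicate 2. In HepLPC replicates 1 and 2 Angptl4 exceeded Angptl2 by 1105-fold and 288-fold, ratios that rest on 3 and 12 counts of Angptl2.

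The 6 genes together summed to 50.5 and 61.2 FPKM in HepLPC replicates 1 and 2 and to 28.2 and 45.8 FPKM in those of NPC_LPC. Angptl4 made up 81.9% and 73.3% of this sum in HepLPC, against 24.3% and 38.6% in NPC_LPC. Angptl2 made up 0.0741% and 0.254% in HepLPC, against 56.4% and 53.4% in NPC_LPC. The share of Angptl8 was 17.5% and 25.3% in HepLPC and 18.6% and 7.59% in NPC_LPC, so the groups overlapped in this share although they did not in its level. Against all rows of its library, Angptl4 stood above 93.3% and 93.6% of genes in HepLPC and above 73.0% and 85.7% in NPC_LPC. Angptl2 stood above 85.0% and 89.3% of genes in NPC_LPC.

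**Figure D2:**
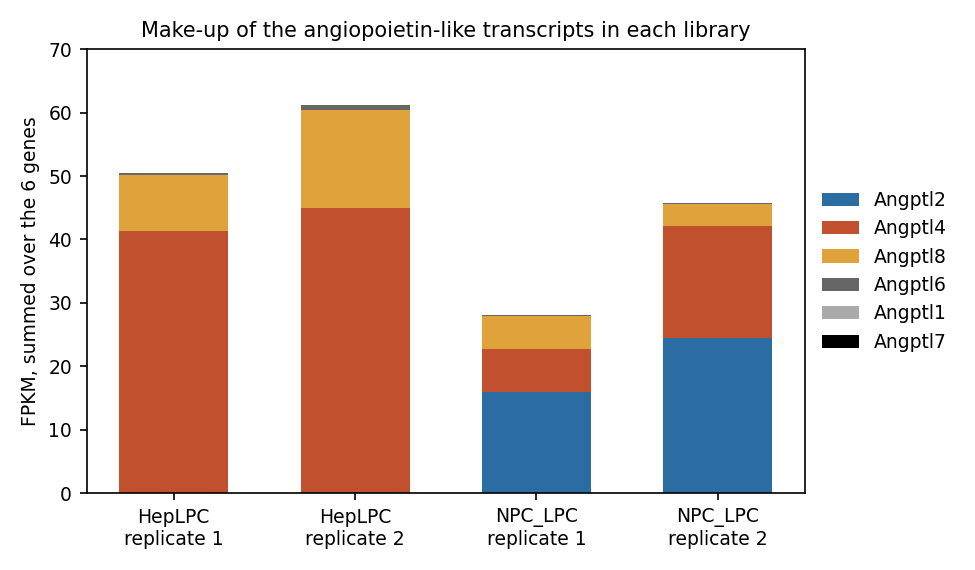
FPKM of the 6 angiopoietin-like genes stacked for each of the 4 libraries, with the y axis starting at 0. The Angptl4 block fills 81.9% and 73.3% of the HepLPC bars, and an Angptl2 block of 56.4% and 53.4% is visible only in the NPC_LPC bars.

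The genes that overlap the members were examined because the strand setting of the counting is not given in the sources used here. Ralgps1, an exchange factor for Ral GTPases whose intron holds Angptl2, was at 23.05 and 31.4 CPM in HepLPC against 43.7 and 15.7 CPM in NPC_LPC replicates 1 and 2. Its groups overlapped (log2 fold change -0.13, SE 0.52), unlike those of Angptl2. Dock6, a guanine nucleotide exchange factor gene that holds Angptl8, was at 12.3 and 11.6 CPM in HepLPC against 24.0 and 19.9 CPM in NPC_LPC, the opposite order to Angptl8. Ralgps2, which holds the nearly silent Angptl1, was at 111 to 117 CPM in HepLPC and at 40.1 to 43.3 CPM in NPC_LPC. Mtor, the growth-regulating kinase gene that holds Angptl7, was at 39.1 and 45.4 CPM in HepLPC against 75.7 and 74.6 CPM in NPC_LPC, where Angptl7 had no read. The log2 fold change of Mtor was -0.83 (SE 0.24), while the 727 tested genes of its chromosome, 4, had a median of -0.61. None of these 4 genes was called by edgeR, and DESeq2 called Ralgps2. Exons of Angptl6 and Angptl1 do overlap those of another gene on the other strand. Angptl6 shares 265 exonic bases, 16.8% of its own, with A230050P20Rik. That gene was at 1.61 and 0.338 CPM in HepLPC against 3.57 and 6.88 CPM in NPC_LPC, so reads of Angptl6 and of this gene may not be separable. Angptl1 shares 465 exonic bases, 16.4% of its own, with Gm37802, which was not found among the deposited gene symbols and so has no value here.

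Among genes of lipoprotein lipase handling, the pathway on which Angptl4 and Angptl8 act, edgeR called 0 of 11 tested (18 listed), with 4 at an unadjusted p under 0.05. Of all tested genes, 0.43% were called and 21.9% had such a p. DESeq2 called 2 of the 11 higher in HepLPC, namely Lpl and Apoe, and limma-voom called none. Over all genes to which it gave an adjusted p, DESeq2 called 11.7%. Over the 11 genes the log2 fold changes had a median of 0.08, against -0.003 over all tested genes. Lpl, the lipase itself, was at 12.3 and 9.29 CPM in HepLPC against 1.04 and 1.53 CPM in NPC_LPC, with a fitted log2 difference of 3.06 (SE 0.51). Apoe, the apolipoprotein of remnant uptake, was at 20.5 and 17.5 CPM in HepLPC against 2.30 and 1.14 CPM in NPC_LPC. Both were higher in both HepLPC libraries. Lipg, endothelial lipase, had the opposite order, with 1 and 4 counts in HepLPC and 27 and 33 counts in NPC_LPC (log2 value -3.41, SE 0.96), and neither edgeR nor DESeq2 called it. By fitted value 7 of the 11 genes were higher and 4 lower in HepLPC. The values of Lpl, Apoe, Lipg and Gpihbp1 were singled out after they had been seen. Gpihbp1, which carries the lipase to the capillary wall, had no count in any library. Lmf2, related to the lipase maturation factor Lmf1, was at 161 and 174 CPM in HepLPC against 74.7 and 119 CPM in NPC_LPC, and the proteoglycan Sdc1 at 554 and 611 and at 601 and 503 CPM, the most abundant genes tested in the list.

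Candidate receptors of the family were lower in HepLPC by fitted value in 9 of 10 tested genes of 13 listed. Their median log2 fold change was -0.87, against -0.003 over all tested genes. The edgeR test called 1 of them, against 0.43% of all tested genes. It was Nrp2, a neuropilin co-receptor reported for a fragment of Angptl4. Nrp2 fell from 173 and 134 CPM in NPC_LPC replicates 1 and 2 to 15.6 and 23.2 CPM in HepLPC (log2 fold change -2.98 with SE 0.32 and an edgeR adjusted p = 0.0419). The groups of Nrp2 did not overlap. The calls of Nrp2, Pcsk6 and Tnc were lost without either HepLPC library and on unfiltered log2(FPKM + 0.1), and limma-voom called only Tnc of the 3. Without 1 NPC_LPC library all 3 were called, but the spread then came from the HepLPC libraries alone. Itga5 and Itgb1, which form the integrin reported as a receptor of Angptl2, were not called by edgeR. DESeq2 called Itga5, as it did Nrp1, Nrp2 and Sdc4, against 11.7% of all genes. Itga5 was at 34.4 and 51.0 CPM in HepLPC against 70.4 and 139 CPM in NPC_LPC, and Itgb1 at 717 and 901 and at 1043 and 2911 CPM. Pirb, a mouse immune receptor reported to bind Angptl2, and Tie1 had no count in any library.

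Of 7 proteases that cleave family members or related secreted proteins, 5 were tested and edgeR called 1, against 0.43% of all tested genes. Pcsk6, a proprotein convertase, rose from 4.94 and 8.17 CPM in NPC_LPC replicates 1 and 2 to 86.4 and 78.5 CPM in HepLPC (log2 fold change 3.65 with SE 0.35 and an edgeR adjusted p = 0.0413). The HepLPC libraries were at least 78.5 CPM and neither NPC_LPC library reached 9 CPM. Furin, the convertase best known for this cleavage, was at 112 and 165 CPM in HepLPC against 111 and 182 CPM in NPC_LPC, so its groups overlapped. Bmp1, of the tolloid family, was at 53.1 and 147 CPM in HepLPC against 446 and 350 CPM in NPC_LPC, and DESeq2 but not edgeR called it. Pcsk5, another convertase, had the opposite order, at 3.89 and 19.5 CPM in HepLPC against 1.97 and 0.0495 CPM in NPC_LPC. It was likewise called by DESeq2 only, a tool that called 11.7% of all genes. The median of the 5 was -0.08 on the log2 scale.

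Relatives with a fibrinogen-like domain and the angiopoietins themselves gave 7 tested genes of 16, with a median log2 fold change of -0.48. Of these 7 edgeR called 1, against 0.43% of all tested genes. Tnc, the matrix protein tenascin C, was the 1 called by edgeR, and it fell from 2053 and 1784 CPM in NPC_LPC to 54.5 and 82.9 CPM in HepLPC (log2 fold change -4.80 with SE 0.36 and an edgeR adjusted p = 0.0265). The 727 tested genes of its chromosome, 4, had a median log2 fold change of -0.61. On the chromosomes of Angptl2, Angptl8 and Angptl4 (2, 9 and 17) the medians were 0.03, -0.08 and -0.11. Angpt1, an activating ligand of Tie2, was at 0.4998 and 0.113 CPM in HepLPC against 3.46 and 4.06 CPM in NPC_LPC. It was not called by edgeR, and DESeq2 called it together with Tnc and Tnxb, against 11.7% of all genes.

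Transcription factors known to act on Angptl4, Angptl8 or Angptl2 were split in direction. All 18 were tested, 9 were higher and 9 lower in HepLPC by fitted value, and the median log2 fold change was -0.01. The edgeR test called 0 of them, with 3 at an unadjusted p under 0.05 (21.9% of all tested genes). DESeq2 called 2 higher (Nr1h3 and Nfatc2), against 11.7% of all genes, and limma-voom none. Hif1a, the hypoxia-inducible factor, was at 597 and 284 CPM in HepLPC against 1238 and 479 CPM in NPC_LPC, and Nfatc3 at 103 and 61.5 and at 116 and 117 CPM. Hif1a groups overlapped. Of the receptors for fatty acids that induce Angptl4, Ppard was the most abundant, at 44.9 and 67.5 CPM in HepLPC against 104 and 94.1 CPM in NPC_LPC. Pparg was at 24.99 and 22.9 CPM in HepLPC against 12.8 and 2.62 CPM in NPC_LPC, and Ppara stayed under 1 CPM in every library.

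Other targets of the factors that act on Angptl4 were counted in the same way. Of 14 tested PPAR target genes (21 listed) edgeR called 0, with 4 at an unadjusted p under 0.05 (21.9% of all tested genes). DESeq2 called 1 higher (Cidec), against 11.7% of all genes, limma-voom none, and the median log2 fold change was 0.43. The fitted values were higher in HepLPC for 10 of the 14 and lower for 4. Me1, malic enzyme, was among the most abundant tested genes of this list, at 537 and 488 CPM in HepLPC against 362 and 251 CPM in NPC_LPC. Among the 4 lower ones was Plin2, the lipid droplet protein. It was at 142 and 301 CPM in HepLPC against 493 and 397 CPM in NPC_LPC, the opposite order to Angptl4. Of 19 tested hypoxia targets (20 listed) edgeR called 0, with 8 at an unadjusted p under 0.05 (21.9% of all tested genes). DESeq2 called 3 higher (Ndrg1, Egln3 and Adm), against 11.7% of all genes, limma-voom none, and the median was -0.19. By fitted value 6 of the 19 were higher and 13 lower in HepLPC. The most abundant tested genes of this list were among the higher ones. They were the glycolytic Ldha, at 1093 and 1087 CPM in HepLPC against 746 and 783 CPM in NPC_LPC, and Pgk1, at 766 and 914 and at 454 and 547 CPM. Among the lower ones was Slc2a1, at 71.3 and 105 CPM in HepLPC against 134 and 192 CPM in NPC_LPC.

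Of 9 tested glucocorticoid targets (11 listed) edgeR called 0, with 4 at an unadjusted p under 0.05 (21.9% of all tested genes). DESeq2 called 2 higher (Dusp1 and Sgk1) and 1 lower (Cebpd), against 11.7% of all genes, limma-voom none, and the median was 0.09. Dusp1, a phosphatase that ends kinase signalling, was at 457 and 430 CPM in HepLPC against 183 and 188 CPM in NPC_LPC. The metallothionein gene Mt1 was at 53.0 and 119 and at 324 and 86.5 CPM, so its groups overlapped.

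**Figure D3:**
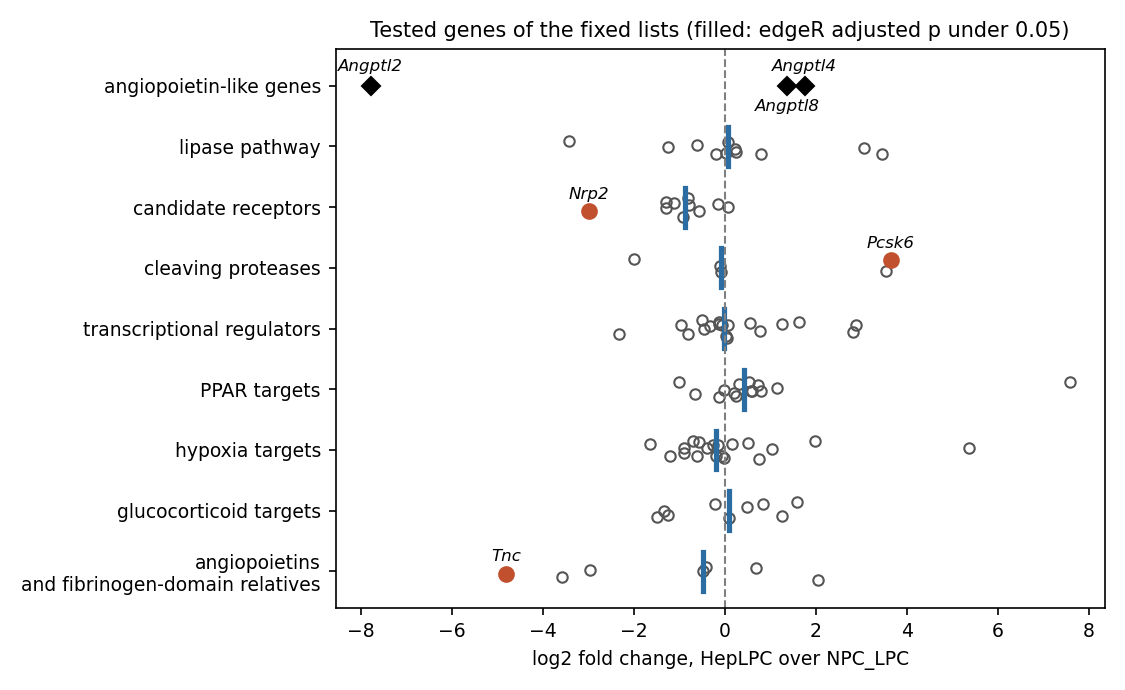
Log2 fold change of HepLPC over NPC_LPC for each tested gene of 8 lists; open circles were not called by edgeR, filled circles were, blue bars are list medians and the dashed line is the median of all 12332 tested genes. The black diamonds give Angptl2 at -7.78, Angptl4 at 1.75 and Angptl8 at 1.38, and Nrp2, Pcsk6 and Tnc are the 3 called list genes.

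Markers of cell types in which Angptl2 is often studied were set beside it. The 10 stellate cell and fibroblast markers summed to 548 and 689 CPM in replicates 1 and 2 of HepLPC, against 2582 and 3683 CPM in NPC_LPC. Nearly all of this was Fbln2, a matrix fibulin, at 534 and 680 CPM in HepLPC against 2576 and 3667 CPM in NPC_LPC. Reln, a stellate cell glycoprotein, had the opposite order, at 8.78 and 5.41 CPM in HepLPC against 0.494 and 1.14 CPM in NPC_LPC. DESeq2 but not edgeR called both genes. The groups of the collagen gene Col1a1 overlapped, at 4.05 and 1.80 CPM against 2.74 and 11.8 CPM. These 3 markers had over 3 counts in every library, while Lrat, Pdgfrb and Lum were at or under 3 counts in all 4. Acta2 and Col3a1 had 46 and 21 counts in NPC_LPC replicate 2 and none in any other library. Des had 14 and 24 counts in HepLPC against 13 and 3 in NPC_LPC, and Dcn 7 and 1 against 26 and 6. Macrophage markers summed to 15.2 to 24.9 CPM in HepLPC and to 21.6 to 81.6 CPM in NPC_LPC, and Adgre1, Clec4f and Marco never exceeded 3 counts. Most of this sum was Cd68, whose groups overlapped, at 21.7 and 13.3 CPM in HepLPC against 79.7 and 20.3 CPM in NPC_LPC. Csf1r was higher in HepLPC, at 3.05 and 1.86 CPM against 1.76 and 0.792 CPM, and neither edgeR nor DESeq2 called it. The mesothelial list summed to 199 to 788 CPM in HepLPC and to 232 to 579 CPM in NPC_LPC, almost all of it Msln. The part of Fbln2-expressing cells in the Angptl2 difference was not tested.

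The genes with the most similar pattern over the 4 libraries were sought by Euclidean distance of log2 CPM centred on each gene's mean. This distance measures likeness over 4 libraries only. The genes were picked for that likeness, so an order of libraries shared with a member is no separate result. Nearest to Angptl2 were Lxn, a carboxypeptidase inhibitor (distance 1.43 on the log2 scale), Piezo2, a mechanically gated ion channel (1.505), and the interferon-induced Oas3 (1.61). All 3 were near the floor in HepLPC, with 2 to 4 counts. Like Angptl2, all 3 were higher in NPC_LPC replicate 2 than in replicate 1. Nearest to Angptl4 were Tnfrsf21, a death-domain receptor (0.19), Dnph1 (0.22) and Prodh, proline dehydrogenase (0.27). Tnfrsf21 was at 168 and 166 CPM in HepLPC against 28.4 and 63.8 CPM in NPC_LPC, the same order of libraries within NPC_LPC as Angptl4. Nearest to Angptl8 were Aldh3b1, an aldehyde dehydrogenase (0.11), Sssca1 (0.14) and Ttc32 (0.15). Aldh3b1 was at 17.1 and 32.3 CPM in HepLPC against 11.0 and 7.72 CPM in NPC_LPC.

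**Figure D4:**
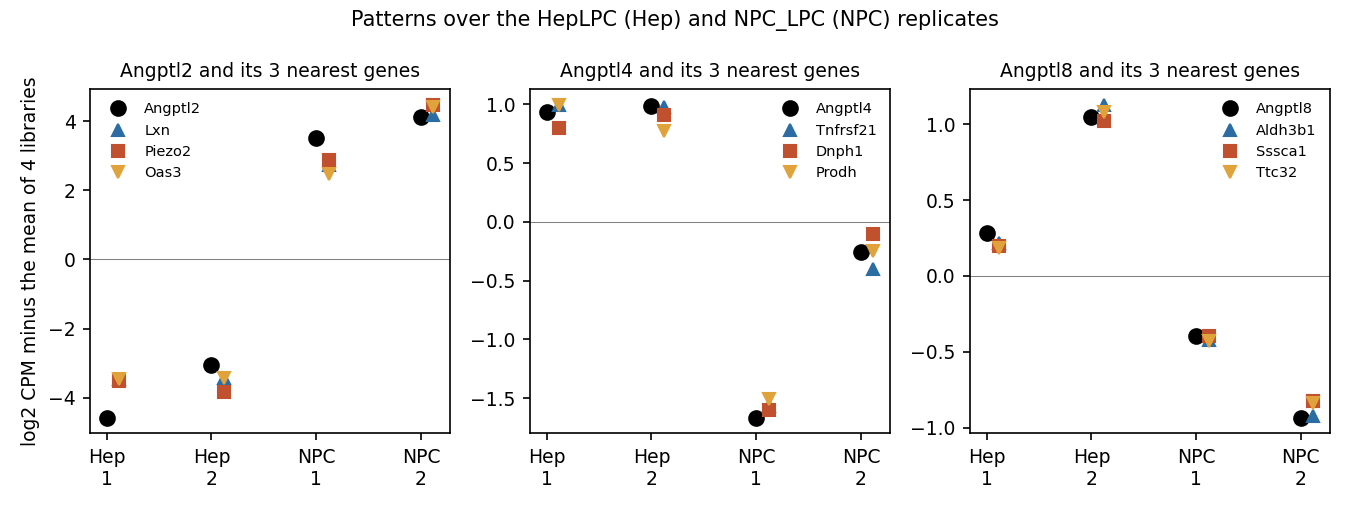
Log2 CPM minus each gene's mean over the 4 libraries, for Angptl2, Angptl4 and Angptl8 (black circles) and the 3 nearest genes of each (coloured). The 3 panels have different y axes, and the neighbours of Angptl4 share its low value in NPC_LPC replicate 1, at 15.5 CPM for Angptl4.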

How the data were processed

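RNA was sequenced in 4 libraries, 2 HepLPC and 2 NPC_LPC, grouped by their titles. Per the labels' protocols, column-purified total RNA went into a stranded, paired-end kit for polyadenylated RNA. Trimmomatic, HISAT2, Cufflinks, HTSeq, DESeq and the build mm10 appear in the submitters' processing notes. Their versions, the annotation and how strand was counted: not given in the sources used here. Per the file headers, the authors deposited a read count and an FPKM value (fragments scaled by transcript length and library size) for each gene symbol. The counts were whole numbers with different totals, 17575998 to 20625957.

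Genes were tested on the deposited counts with edgeR 4.0.16 (R 4.3.3): TMM, filterByExpr, the quasi-likelihood test with group as the only term, two-sided, Benjamini-Hochberg adjusted over 12332 genes, threshold 0.05. Fold changes are HepLPC over NPC_LPC, and SEs come from the F statistic. An exact permutation test of 2 libraries against 2 cannot go below p = 0.333, so none was run. The script was tested on simulated data.

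The members and lists were chosen with earlier results of these data known. Named genes are the members, genes overlapping them, for each of 8 lists the called genes (at most 3) or else the 2 most abundant tested (1 such gene is not reported here), and for each tested member the 3 nearest genes of at least 5 CPM. Any further gene was picked with its values in view. Cell type markers come from 7 lists. Alternatives were 3 other scalings, 2 other filters, DESeq2 1.42.0, limma-voom and limma 3.58.1 on log2 FPKM, the replicate number as a block, and leaving out each library. Gene models came from GENCODE M21 and promoters from RefSeq.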

Additional observations from a re-analysis of the deposited data

How the results depend on the processing

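The signs of the Angptl2, Angptl4 and Angptl8 fold changes were kept under all 15 alternatives, which reuse the same libraries. Angptl2 ranged from -9.08 to -4.24 on the log2 scale, Angptl4 from 1.23 to 2.63 and Angptl8 from 0.94 to 1.72. The value of -4.24 comes from limma on log2(FPKM + 1), whose pseudocount shrinks a gene near 0, and -9.08 from leaving out HepLPC replicate 2. The count of called genes was 53. It was 593 with no filter beyond 1 count, 1523 with DESeq2, 5 with limma-voom, 80 and 115 with limma on log2(FPKM + 0.1) and log2(FPKM + 1), and 0 on log2(FPKM + 0.1) without a filter. The cause was not tested. Leaving out 1 library gave 0 to 377 genes, with 0 for either HepLPC library; the lone library left in a group is assumed to vary like the other group. Of the list genes 3 were called, against 9 without the filter, 21 with DESeq2, 1 (Tnc) with limma-voom, 0 with unfiltered FPKM and 0 to 7 without 1 library. Of the members 1 was called, against 2 with DESeq2, 0 with limma-voom, 0 with unfiltered FPKM and 0 to 1 without 1 library. With the replicate number as a block 136 genes were called, 49 higher and 87 lower in HepLPC, and the same 1 member and 3 list genes. The labels do not say that the numbers mark shared animals or days. Deviations of same-numbered libraries from their group means correlated at -0.017. With 2 libraries a group both pairs give the same value, so it cannot decide whether same-numbered libraries share an animal or day. Depth limits Angptl1, Angptl6 and Angptl7, at 0 to 24 counts, and Angptl2 in HepLPC.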
